A study of Homo sapiens with 16 samples.

Results

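The DNA replication and S phase mRNAs described here are 45 transcripts, chosen by gene symbol and by an abundance of at least 1 CPM (counts scaled to library size) in the deposited table. All 45 were found, among 60564 genes in the table and 16241 genes that were tested. They come from a SLAM-seq experiment on THP-1, a line of human monocytic leukaemia cells. SLAM-seq marks new RNA with 4-thiouridine (4sU), a uridine analogue that is read as cytosine after alkylation, so that labelled transcripts carry T-to-C conversions. Control cells with wild-type ALKBH5 and cells with an ALKBH5 knockdown were labelled with 100 µM 4sU for 1 h, washed, and kept in 10 mM uridine. Polyadenylated RNA was collected at 0, 1.5, 4.5 and 7.5 h of this chase, with 2 replicates for each of 8 groups, 16 libraries in all. No clone, construct or culture is named for the knockdown, and nothing in the labels says that the replicates were separate cultures. The p-values below therefore measure only the spread between these libraries.

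DNA replication begins when the origin recognition complex, CDC6 and CDT1 load the MCM2-7 helicase onto origins, a step that geminin (GMNN) blocks once S phase has started. CDC45 and the GINS complex then activate the helicase, polymerases alpha, delta and epsilon copy the strands, and PCNA, loaded by replication factor C, holds the polymerases on DNA. Many of these genes are known E2F targets whose transcripts rise before S phase. ALKBH5 is a demethylase that removes N6-methyladenosine (m6A), a mark on mRNA that is linked to its decay.

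The promoters of a few members are shown because many replication genes share the letters bound by E2F. Of the 45 members, 39 had a promoter in the RefSeq table (build GRCh38.p14). The letters searched, on both strands of the 250 bases before the start, were TTTCCCGC, TTTCGCGC, TTTGCCGC and TTTGGCGC. They occurred in 14 of the 39 members (35.9%), against 2.79% of 27305 promoters in the table and 4.57% of the 9852 that belong to tested genes. The letters CCAAT occurred in 24 of the 39 (61.5%), against 33.0% of all promoters and 35.0% of those of tested genes. The 120 bases before the start are printed 5′ to 3′ on the strand of the gene, with E2F letters in capitals. The positions are chr2:135876444-135876563 (minus strand) for MCM6, chr20:5126623-5126742 (minus) for PCNA, chr12:132687343-132687462 (minus) for POLE, chr1:35769979-35770098 (minus) for CLSPN and chr6:24774817-24774936 (plus) for GMNN.
MCM6: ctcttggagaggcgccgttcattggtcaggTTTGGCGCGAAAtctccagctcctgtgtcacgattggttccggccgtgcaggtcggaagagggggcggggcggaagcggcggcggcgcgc
PCNA: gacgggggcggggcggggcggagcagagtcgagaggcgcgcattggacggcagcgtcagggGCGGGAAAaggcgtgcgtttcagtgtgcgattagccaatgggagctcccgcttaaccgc
POLE: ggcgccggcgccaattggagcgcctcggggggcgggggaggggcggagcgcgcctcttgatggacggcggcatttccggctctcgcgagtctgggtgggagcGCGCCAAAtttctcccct
CLSPN: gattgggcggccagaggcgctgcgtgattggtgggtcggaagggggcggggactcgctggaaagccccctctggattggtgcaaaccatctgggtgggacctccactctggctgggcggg
GMNN: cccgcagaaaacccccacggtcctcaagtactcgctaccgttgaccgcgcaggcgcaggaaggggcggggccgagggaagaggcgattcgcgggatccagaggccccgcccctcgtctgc
In MCM6 the capitals cover 2 overlapping matches, 1 on each strand, and its 250 base window holds 4 matches. PCNA and POLE hold 1 match each on the opposite strand, and neither CLSPN nor GMNN holds these letters in its window. The start used is that of RefSeq, and by GENCODE 29 the last 23 bases printed for POLE, 6 for GMNN and 4 for PCNA are exonic. The POLE match, whose first base is at −18 from the RefSeq start, lies among those exonic bases. A match describes the letters and is not a measured binding site.

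The value measured for each gene and library is a fraction read as its T-to-C conversion rate, the converted share of sequenced T bases, given here in percent. Loss of labelled RNA and synthesis of unlabelled RNA both lower it, so a rate cannot separate decay from new synthesis, and it says nothing of abundance. How many T bases stand behind a rate is unknown, so no counting interval is given. No library without 4sU was used here, and the background of sequencing mismatches was not measured. The columns taken as knockdown were assigned by elimination, and the rate of ALKBH5 mRNA (0.0982 to 0.812% in control, 0.108 to 3.31% in knockdown) does not test the knockdown. The single abundance column belongs to an unstated library. In it, 7 of 8 monocytic and myeloid markers reached 1 CPM, with LYZ at 1276, while 3 of 5 lymphoid and 2 of 4 erythroid markers were at 0 and CDH1, at 2.88 CPM, led the epithelial list. Tests used limma on log2(rate in percent + 0.05), with Benjamini-Hochberg adjustment over all 16241 genes and a threshold of 0.05, and a gene past it is called changed.

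No member was listed at 0 in any library. Abundance ran from 3.52 CPM for CDT1, the licensing factor, to 228.8 CPM for CLSPN, the adaptor that carries the checkpoint signal from stalled forks. The median rate of the 45 members in control over the 4 times was 0.645% ± 0.00905, 0.564% ± 0.0593, 0.402% ± 0.0232 and 0.273% ± 0.00212 (SD of 2 libraries). The knockdown medians were 1.30% ± 0.0827, 1.27% ± 0.108, 1.06% ± 0.114 and 0.711% ± 0.0572. Over all tested genes the median went from 0.548% to 0.252% in control and from 1.18% to 0.533% in knockdown. The median member lay above the median of all tested genes in each of the 16 libraries. In these bulk libraries a different share of cells in S phase and a change within each cell cannot be told apart. At 7.5 h the median member kept 43.3% of its 0 h rate in control and 55.2% in knockdown, against 53.8% and 50.6% over all tested genes. Each of these medians is taken within a genotype, so the gap between them is not a change gene by gene.

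**Figure D1:**
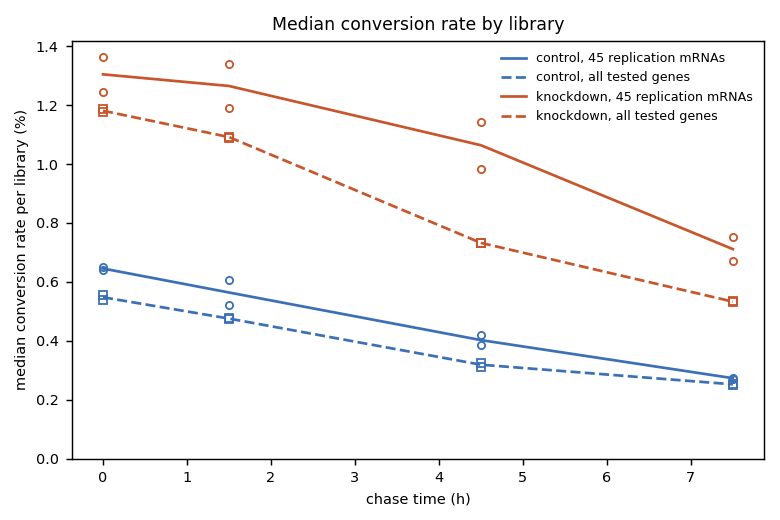
Median conversion rate, in percent, of the 45 replication mRNAs and of all 16241 tested genes in each library, by hours of chase, with 1 point per library in control and knockdown and lines through the group means. The members lie above all genes in every library, with control medians of 0.271 to 0.652% and knockdown medians of 0.671 to 1.36%.

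In control 25 members fell, against 34.4% of tested genes that fell, and 1 rose, against 3.45%. In knockdown 22 fell, against 37.9%, and none rose, against 4.06%. The median member slope was −0.16 log2 per hour in control and −0.13 in knockdown, beside −0.11 and −0.13 for all tested genes. Gene by gene, the knockdown slope minus the control slope had a median of −0.0018 over the members, with 22 above 0 and 23 below. Over all tested genes that median was −0.010, with 7380 above 0 and 8861 below. Most of the licensing and polymerase mRNAs fell, while 5 of the 6 MCM2-7 mRNAs did not pass the test in either genotype.

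Among the 6 subunits of the MCM2-7 helicase, the ring that unwinds the template, only MCM2 fell, beside 34.4% and 37.9% of tested genes. Its fall was 0.18 log2 per hour in control (adjusted p = 0.0137, limma) and 0.19 in knockdown (adjusted p = 0.00896, limma). The knockdown call of MCM2 ended without knockdown 7.5 h replicate 2, with a slope of −0.11 and an adjusted p of 0.119 (limma). The control slopes of the other 5 lay between −0.01 (MCM6) and 0.03 (MCM4) log2 per hour. MCM4, the most abundant of them at 84.6 CPM, had rates in control of 0.519 and 0.601% (0 h), 0.478 and 0.483% (1.5 h), 0.975 and 0.572% (4.5 h), 0.572 and 0.617% (7.5 h). MCM4 in knockdown read 1.13 and 0.628%, 1.06 and 0.816%, 1.38 and 1.13%, and 0.958 and 0.920% over these 4 times, the order used for each member. The 0 h and 7.5 h libraries of MCM4 overlapped in both genotypes, and its slope of 0.03 in control had a 95% interval of −0.05 to 0.11.

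Relative to the common fall, 5 of the 6 MCM2-7 mRNAs were called higher in control, and so were other members. When each library was first centred on its own median over the tested genes, which takes −0.136 log2 per hour from every control slope and −0.150 from every knockdown slope, 11 members had a higher slope than the common one in control and 5 a lower one. The shares over all tested genes were 17.6% and 9.46%. With no CPM minimum, which changes the genes behind the centring, the split became 18 higher and 0 lower, so each of the lower calls was lost. The shares of all genes called under that setting were not computed in either genotype. The 5 lower ones were GMNN, PRIM2, POLD3, RFC4 and FEN1. MCM3, MCM4, MCM5, MCM6 and MCM7 were among the 11, at 0.12 to 0.17 log2 per hour above the common fall, beside ORC3, CDC45, POLD2, RPA3, RRM1 and TYMS. TYMS, CDC45 and RPA3 lay above every MCM mRNA, at 0.25, 0.20 and 0.19, while ORC3, RRM1 and POLD2 were at 0.12, 0.14 and 0.17. The calls of the 5 lower ones other than GMNN, and that of POLD2, each ended without control 7.5 h replicate 1, with an adjusted p of up to 0.176 without a single library (limma). The call of MCM4 held without each single library in turn. That of MCM6 was at the threshold itself (adjusted p = 0.05, limma) and ended without any 1 of 14 libraries, that of MCM5 without any 1 of 12, that of MCM3 without any 1 of 3 (control 0 h replicates 1 and 2 and 7.5 h replicate 2), and that of MCM7 without either control 0 h library. The highest adjusted p among these fits was 0.251, for MCM5 (limma). In knockdown 11 members were above the common fall and 4 below it (17.7% and 8.62% of tested genes). Those above were MCM3, MCM4, MCM7, GINS2, POLD1, POLD2, PCNA, RFC4, RPA3, RRM1 and TYMS. GINS2 was the highest, at 0.27 log2 per hour. Among those above, the calls of MCM4, MCM7, GINS2, PCNA, RPA3 and TYMS held without each single library in turn. GMNN, POLA1, PRIM2 and SLBP were below. With no CPM minimum the knockdown split became 5 higher and 0 lower. The 16 members called in control became 10 without control 0 h replicate 2 and 9 without control 7.5 h replicate 2, and the 15 called in knockdown became 9 without knockdown 0 h replicate 1 or 7.5 h replicate 2. The MCM3 call in knockdown ended without either knockdown 0 h library, at an adjusted p of up to 0.0721 (limma).

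Of the 7 origin recognition and licensing mRNAs, 4 fell in control (ORC1, ORC2, ORC6 and GMNN) and 6 in knockdown, all but CDT1. Beside them, 34.4% and 37.9% of tested genes fell. The ORC1 control call ended without control 0 h replicate 1 or either 7.5 h library, at an adjusted p of up to 0.0734, and the ORC6 knockdown call without knockdown 7.5 h replicate 2, at 0.0534 (limma). ORC3, a subunit of the origin recognition complex and the most abundant of the 7 at 88.6 CPM, kept 91.0% of its 0 h rate at 7.5 h in control. Its control rates were 0.45 and 0.784% (0 h), 0.789 and 0.529% (1.5 h), 0.570 and 0.619% (4.5 h), 0.521 and 0.601% (7.5 h). ORC3 in knockdown read 1.30 and 1.36%, 1.15 and 1.36%, 1.13 and 1.04%, and 0.825 and 0.887%. The control libraries of ORC3 overlapped throughout, while both knockdown 7.5 h libraries lay below both 0 h ones. The knockdown slope of −0.08 passed (adjusted p = 0.0227, limma), but ended without any 1 of 3 libraries (knockdown 0 h replicate 2 and both at 7.5 h), at an adjusted p of up to 0.0963 (limma).

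GMNN (chr6:24774931-24786099, plus strand) had the steepest fall of all members. Its control rates were 1.13 and 1.41% (0 h), 1.15 and 1.02% (1.5 h), 0.447 and 0.258% (4.5 h), 0.190 and 0.17% (7.5 h). GMNN in knockdown read 3.18 and 3.10%, 2.87 and 3.09%, 1.22 and 1.39%, and 0.606 and 0.501%. In both genotypes the 0 h and 1.5 h libraries all lay above the 4.5 h ones, and those above the 7.5 h ones. The slope was −0.36 log2 per hour in control (SE 0.0328, adjusted p = 9.72e-07, limma) and −0.34 in knockdown (SE 0.0328, adjusted p = 1.34e-06, limma), at percentiles 5.88 and 6.54 of the slopes of tested genes. These slopes correspond to halving of the rate plus the pseudocount in 2.78 h and 2.97 h. Relative to the common fall GMNN was also lower in both genotypes, at −0.22 and −0.19, calls that were lost with no CPM minimum. CDT1, the partner that geminin inhibits, had slopes of −0.18 and −0.16 that did not pass.

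In the helicase activation group 3 of 6 fell in control (MCM10, GINS1 and GINS3) and 2 in knockdown (MCM10 and GINS1), beside 34.4% and 37.9% of tested genes. The GINS1 calls ended without any 1 of 4 control libraries (both at 0 h, 1.5 h replicate 1 and 7.5 h replicate 2) or of 3 knockdown libraries (0 h replicate 1 and both at 7.5 h), at an adjusted p of up to 0.132 (limma). The 4 GINS subunits act as 1 complex. GINS1 and GINS3 fell by 0.16 and 0.29 log2 per hour in control, and GINS2 was at 0.00 and GINS4 at −0.03, which did not pass; differences between these slopes were not tested. GINS4, the most abundant at 33.0 CPM, had control rates of 0.592 and 0.919% (0 h), 0.310 and 0.638% (1.5 h), 0.493 and 0.378% (4.5 h), 0.592 and 0.515% (7.5 h). GINS4 in knockdown read 1.28 and 0.946%, 1.53 and 1.37%, 0.701 and 1.67%, and 1.19 and 0.963%. GINS4 showed no separation of 0 h from 7.5 h in either genotype.

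CDC45, which joins MCM2-7 and GINS in the active helicase, had the second highest control slope, 0.06 log2 per hour, which did not pass. Its control rates were 0.561 and 1.33% (0 h), 0.367 and 0.688% (1.5 h), 0.731 and 0.696% (4.5 h), 0.720 and 1.51% (7.5 h). CDC45 in knockdown read 0.941 and 2.36%, 2.39 and 1.48%, 1.41 and 1.10%, and 1.31 and 0.819%. Replicates of CDC45 at 0 h differed by more than its groups did over time. Its higher slope relative to the common fall in control (0.20, adjusted p = 0.0283, limma) ended without control 0 h replicate 1 or 7.5 h replicate 2, at an adjusted p of up to 0.185 (limma).

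Of the 9 polymerase and primase mRNAs, 7 fell in control and 5 in knockdown, beside 34.4% and 37.9% of tested genes. The exceptions in control were POLD1 and POLD2, the catalytic and the small subunit of polymerase delta, at −0.01 and 0.03 log2 per hour. POLD3, an accessory subunit of the same enzyme, fell by 0.22 in control (SE 0.0243, adjusted p = 6.78e-06, limma) and 0.16 in knockdown. The 3 delta subunits therefore ranged from 29.4% (POLD3) to 113.8% (POLD2) of their 0 h rate at 7.5 h in control.

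POLA1, the catalytic subunit of polymerase alpha and the most abundant of the 9 at 105.7 CPM, had control rates of 0.466 and 0.380% (0 h), 0.306 and 0.266% (1.5 h), 0.105 and 0.125% (4.5 h), 0.107 and 0.152% (7.5 h). POLA1 in knockdown read 1.2 and 1.09%, 1.00 and 0.798%, 0.321 and 0.493%, and 0.330 and 0.202%. The 4.5 h and 7.5 h libraries overlapped in both genotypes, below all those at 0 h and 1.5 h. POLA1 fell by 0.20 log2 per hour in control (adjusted p = 5.44e-04, limma) and 0.27 in knockdown (adjusted p = 2.76e-05, limma).

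POLE, the catalytic subunit of polymerase epsilon, had control rates of 0.902 and 0.759% (0 h), 0.414 and 0.786% (1.5 h), 0.0580 and 0.121% (4.5 h), 0.186 and 0.111% (7.5 h). POLE in knockdown read 1.63 and 1.35%, 0.935 and 1.22%, 0.418 and 0.683%, and 0.216 and 1.72%. One knockdown 7.5 h library thus lay below all the other knockdown values and its replicate above them all. The control slope of −0.33 (SE 0.0913, adjusted p = 0.00888, limma) passed, and the knockdown slope of −0.17 (95% interval −0.36 to 0.03) did not. PRIM1, the primase subunit that makes the RNA primer, fell in control by 0.24, but without control 7.5 h replicate 2, at 0.0423%, the slope was −0.10 and the adjusted p 0.190 (limma). The control fall of POLA2 ended without that library as well (adjusted p = 0.0513, limma), and that of POLE2 without it or either control 0 h library, at an adjusted p of up to 0.0785 (limma).

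In the group of the sliding clamp and its loader, RFC1, RFC3 and RFC4 fell in control and RFC1, RFC3 and RFC5 in knockdown. Among tested genes 34.4% fell in control and 37.9% in knockdown. RFC1, the large subunit of the clamp loader and the most abundant of the 6 at 95.9 CPM, had control rates of 0.726 and 0.695% (0 h), 0.851 and 0.687% (1.5 h), 0.509 and 0.572% (4.5 h), 0.345 and 0.331% (7.5 h). RFC1 in knockdown read 1.55 and 1.75%, 2.17 and 1.60%, 1.10 and 1.22%, and 0.946 and 1.11%. In control all 4 early libraries of RFC1 lay above the 4.5 h ones and those above the 7.5 h ones, and its slope was −0.14 (adjusted p = 5.88e-04, limma). PCNA did not pass in either genotype, with slopes of −0.07 (95% interval −0.17 to 0.02) in control and 0.06 (−0.03 to 0.16) in knockdown. Relative to the common fall PCNA was higher in knockdown, by 0.21 log2 per hour (adjusted p = 0.00219, limma), where 17.7% of tested genes were higher. The RFC5 fall in knockdown ended without knockdown 7.5 h replicate 1 (adjusted p = 0.126, limma).

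Among the 5 mRNAs for single-strand binding and Okazaki fragment joining, RPA2, FEN1 and LIG1 fell in control and FEN1 in knockdown. The shares of tested genes that fell were 34.4% and 37.9%. The LIG1 call ended without control 0 h replicate 1 or 7.5 h replicate 2, at an adjusted p of up to 0.141, and the RPA2 call without control 7.5 h replicate 1, at 0.0552 (limma). FEN1, the nuclease that trims the flaps of Okazaki fragments, had control rates of 0.639 and 1.07% (0 h), 0.744 and 0.771% (1.5 h), 0.312 and 0.50% (4.5 h), 0.190 and 0.104% (7.5 h). FEN1 in knockdown read 2.53 and 1.98%, 2.25 and 1.86%, 1.15 and 1.89%, and 0.781 and 0.476%. The 7.5 h libraries lay below all others in both genotypes, and the slopes were −0.30 (adjusted p = 3.11e-04, limma) and −0.24 (adjusted p = 0.00175, limma).

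RPA3, the smallest subunit of the single-strand binding protein RPA, was among the members with the lowest rates. Its control rates were 0.127 and 0.135% (0 h), 0.126 and 0.163% (1.5 h), 0.0967 and 0.243% (4.5 h), 0.172 and 0.209% (7.5 h). RPA3 in knockdown read 0.322 and 0.403%, 0.421 and 0.410%, 0.662 and 0.526%, and 0.529 and 0.414%. Both 7.5 h libraries of RPA3 lay above both 0 h ones in each genotype, but its slope of 0.05 in each did not pass. Relative to the common fall it was higher in both, by 0.19 and 0.20 log2 per hour (adjusted p = 4.53e-04 and 1.95e-04, limma).

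Of the 3 nucleotide supply mRNAs, RRM2 fell in both genotypes, TYMS rose in control, and RRM1 did not pass in either. Falls were called in 34.4% of tested genes in control and 37.9% in knockdown, and rises in 3.45% in control. RRM1 and RRM2 encode the large and small subunits of ribonucleotide reductase, and TYMS encodes thymidylate synthase, which makes dTMP. RRM2 (chr2:10120698-10131419, plus strand) had control rates of 0.907 and 0.789% (0 h), 0.912 and 0.863% (1.5 h), 0.412 and 0.580% (4.5 h), 0.220 and 0.347% (7.5 h). RRM2 in knockdown read 2.56 and 2.32%, 2.62 and 2.29%, 1.39 and 1.67%, and 0.752 and 0.901%. In both genotypes the 0 h and 1.5 h libraries overlapped and stood above the later ones. RRM2 fell by 0.21 log2 per hour in control (adjusted p = 5.01e-05, limma) and by 0.21 in knockdown (adjusted p = 3.57e-05, limma). RRM1 was at 0.01 (95% interval −0.06 to 0.07) in control and −0.04 (−0.10 to 0.03) in knockdown, so the 2 subunits of the enzyme ended the chase at 86.4% (RRM1) and 33.5% (RRM2) of their 0 h rate in control.

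TYMS was the member whose slope passed as a rise in control, and none did in knockdown. Its control rates were 0.189 and 0.153% (0 h), 0.271 and 0.278% (1.5 h), 0.353 and 0.286% (4.5 h), 0.392 and 0.364% (7.5 h). TYMS in knockdown read 0.317 and 0.491%, 0.653 and 0.758%, 0.760 and 0.640%, and 0.565 and 0.649%. In control each later pair lay above both 0 h libraries, and in knockdown the 6 later libraries, at 0.565 to 0.760%, lay above both 0 h ones. The control slope was 0.11 log2 per hour (SE 0.0361, adjusted p = 0.0213, limma), and the call ended without any 1 of 3 libraries (both at 0 h and 7.5 h replicate 1), at an adjusted p of up to 0.0931 (limma). The knockdown slope of 0.05 (95% interval −0.02 to 0.13) did not pass. TYMS shares 967 exonic bases with ENOSF1 on the opposite strand, and whether reads were counted by strand is not given in the sources used here, so its reads may include those of ENOSF1.

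UHRF1, CLSPN and SLBP, which maintain DNA methylation, carry the checkpoint signal and bind histone mRNA, all fell in both genotypes. So did 34.4% of tested genes in control and 37.9% in knockdown. CLSPN had control rates of 0.690 and 0.652% (0 h), 0.493 and 0.606% (1.5 h), 0.379 and 0.463% (4.5 h), 0.271 and 0.208% (7.5 h). CLSPN in knockdown read 1.53 and 1.73%, 1.49 and 1.78%, 1.25 and 1.52%, and 0.803 and 0.776%. In control the CLSPN libraries fell at each step without overlap between times, and in knockdown only the 7.5 h libraries stood clear of the rest. Its slopes were −0.17 (adjusted p = 4.74e-05, limma) and −0.13 (adjusted p = 3.53e-04, limma). SLBP, whose product binds the stem-loop of replication-dependent histone mRNAs, fell by 0.12 in control and 0.25 in knockdown. The SLBP control call ended without control 7.5 h replicate 2 (adjusted p = 0.0655, limma), and the UHRF1 knockdown call without knockdown 7.5 h replicate 1 (adjusted p = 0.0945, limma).

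**Figure D2:**
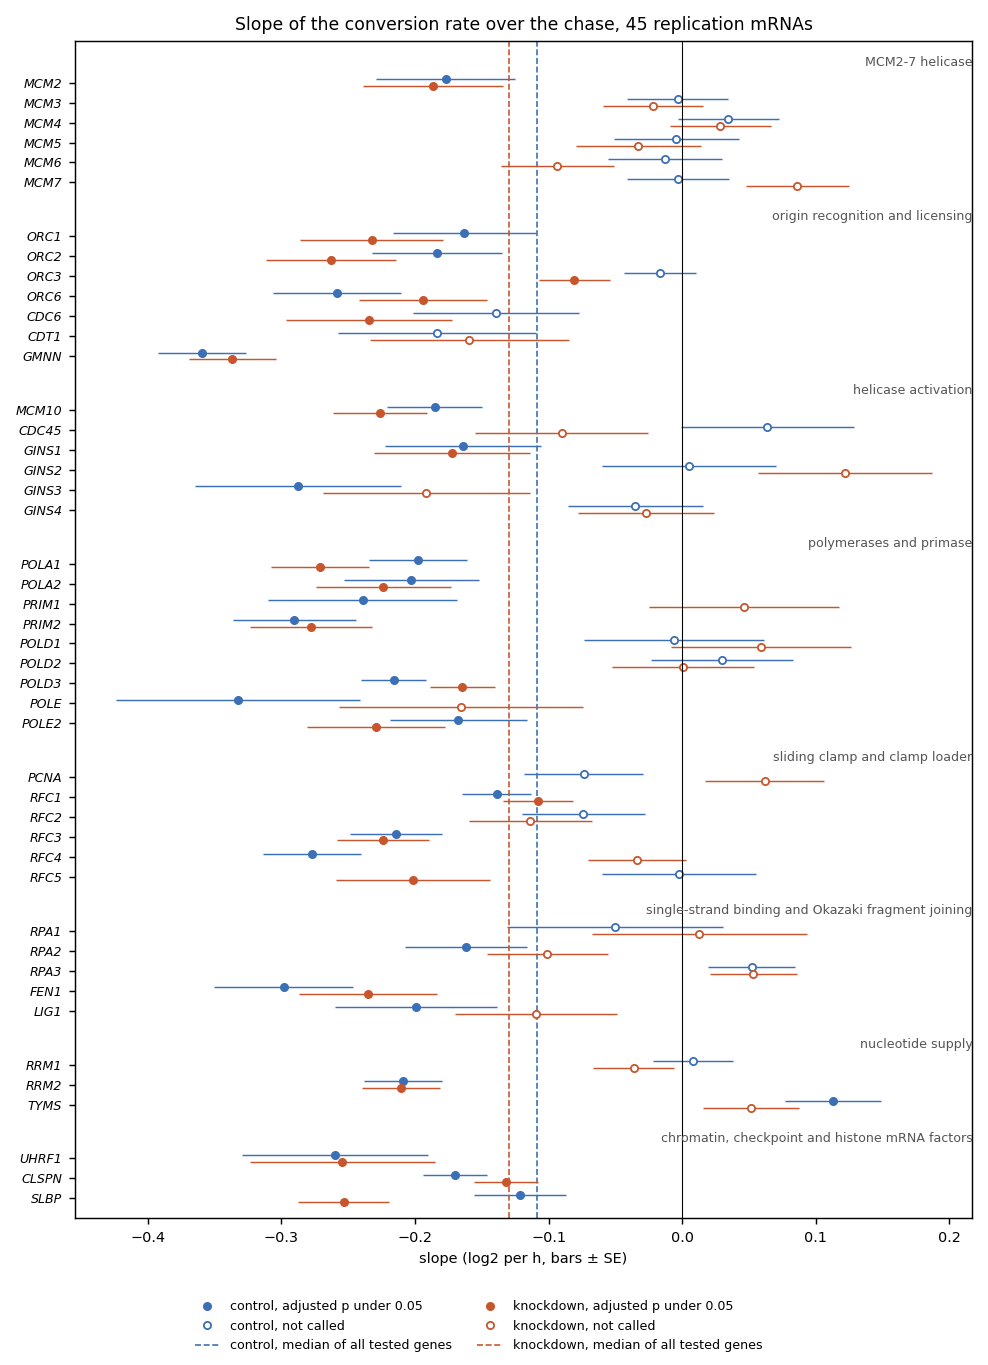
Slope of log2(rate in percent + 0.05) per hour of chase for each of the 45 members, grouped by role, with bars of 1 SE on each side. Filled points are past the threshold, open points are not, and the dashed lines are the median slopes of all tested genes in control and knockdown. GMNN lies lowest (−0.36 and −0.34), 5 of the 6 MCM subunits lie near 0 in control, and TYMS lies above 0 in control.

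**Figure D3:**
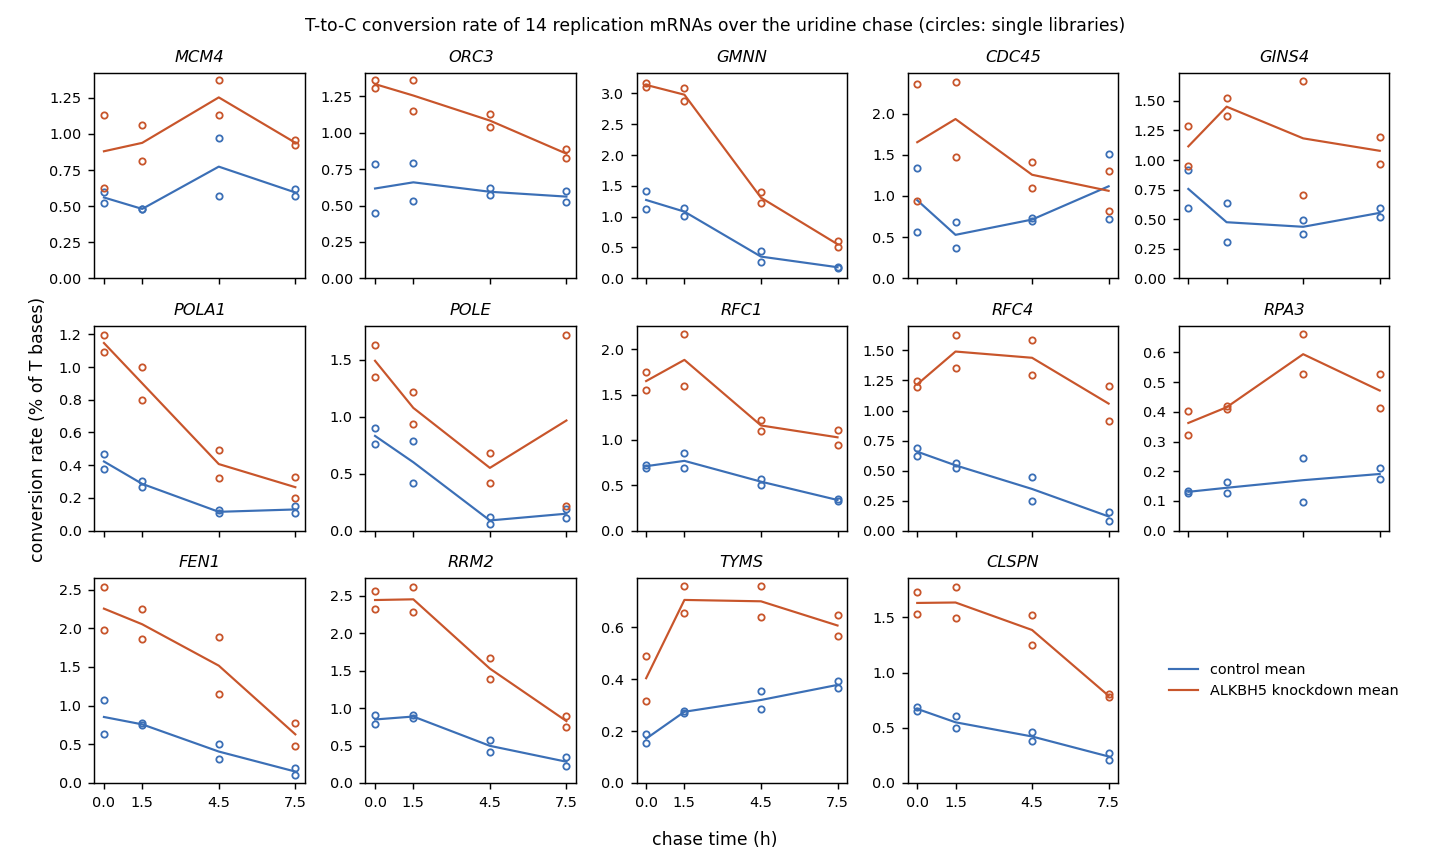
Conversion rate, in percent, against hours of chase for the members described library by library, with 1 point per library and lines through the group means. GMNN, RRM2, FEN1 and CLSPN fall in both genotypes, TYMS and RPA3 do not, and RFC4 ends at 0.0843 and 0.152% in control and 0.913 and 1.2% in knockdown.

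Over the first 1.5 h no member passed in either genotype, where 0.0739% of tested genes passed in control and 0.0554% in knockdown (limma). At an unadjusted p under 0.05 there were 4 members in control (PRIM2 and POLE2 lower, RFC2 and TYMS higher) and 1 in knockdown (TYMS higher). That cut held 2083 of the 16241 tested genes in control and 1572 in knockdown. Of the members, 14 in control and 11 in knockdown had both 1.5 h libraries below both 0 h ones, against 29.1% and 30.5% of tested genes. Both 1.5 h libraries lay above both 0 h ones in 3 members in control and 10 in knockdown, against 15.4% and 18.5% of tested genes.

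Control and knockdown slopes of the 45 members correlated with a Pearson r of 0.699 and a Spearman rho of 0.66. This is a description across genes, which share their libraries and abundance and are not independent replicates. No slope difference passed for any member or any of the 16241 genes (limma; 0% called), and 1269 genes had an unadjusted p under 0.05. Among those were 5 members, PRIM1, PCNA and RFC4 with a shallower slope in knockdown and RFC5 and SLBP with a steeper one. The 95% interval of the difference was 0.07 to 0.50 log2 per hour for PRIM1, 0.00 to 0.27 for PCNA, −0.37 to −0.03 for RFC5 and −0.23 to −0.03 for SLBP.

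RFC4, another subunit of the clamp loader, is described library by library because of its values, which were seen first. RFC4 (chr3:186789880-186807058, minus strand) had control rates of 0.625 and 0.690% (0 h), 0.522 and 0.565% (1.5 h), 0.446 and 0.247% (4.5 h), 0.0843 and 0.152% (7.5 h). RFC4 in knockdown read 1.19 and 1.24%, 1.63 and 1.35%, 1.29 and 1.59%, and 0.913 and 1.2%. The control libraries fell without overlap between successive times, and the knockdown ones stayed within 0.913 to 1.63%. The slope was −0.28 in control (SE 0.0367, adjusted p = 2.98e-05, limma) and −0.03 in knockdown (95% interval −0.11 to 0.04). The difference was 0.24 (95% interval 0.13 to 0.35, adjusted p = 0.278, limma), which did not pass. RFC4 shares 21 exonic bases with EIF4A2 on the opposite strand.

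At 7.5 h the RFC4 rate was 2.74 log2 higher in knockdown (adjusted p = 5.9e-05, limma). Of the members, 24 were higher at that time, where 33.5% of tested genes were higher. With each library centred it was the only member that passed at any of the 4 times, at 1.79 log2 above the common shift (adjusted p = 0.0158, limma), where 0.4% of tested genes were higher. This call ended without control 7.5 h replicate 1 or knockdown 7.5 h replicate 2, with values from 1.50 to 2.07 and an adjusted p of up to 0.0796 (limma). PRIM1 had a larger centred difference at 7.5 h, 1.91, which did not pass (adjusted p = 0.104, limma).

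Averaged over the chase, all 45 members had a higher rate in knockdown, where 69.6% of tested genes were higher. The differences ran from 0.63 log2 for POLE2, a subunit of polymerase epsilon, to 1.73 for RFC4, with a median of 1.15, beside 1.02 over all tested genes. RPA1 and LIG1, the largest subunit of RPA and the ligase that seals Okazaki fragments, had calls that each ended without any 1 of 5 libraries, at an adjusted p of up to 0.0600 (limma). In 29 members both knockdown libraries lay above both control libraries at all 4 times (64.4%), against 40.5% of tested genes. The median gap between replicates was smaller for the members than for all tested genes in every group. It was 0.263 and 0.420 log2 in control at 0 h and 0.447 and 0.480 in control at 4.5 h. Whether this bears on the shares of calls and of separated libraries was not tested. At single times the members called higher were 23, 31, 32 and 24 at 0, 1.5, 4.5 and 7.5 h, where 35.6%, 38.9%, 38.3% and 33.5% of tested genes were higher. These counts rest on few libraries, since 18 to 20 members were called at 1.5 h without any 1 of its 4 libraries. At 4.5 h there were 21 without control replicate 1 and 19 without knockdown replicate 2, and at 7.5 h 15 without knockdown replicate 1.

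A shift common to all genes is contained in these values. Centring takes 1.05 log2 from every genotype effect, and after it 28 members lay above the common shift and 17 below, and 3 of 45 were past the threshold as higher and none as lower, where 1.45% of tested genes were higher and 4.59% lower. Of the 16241 tested genes, 7697 lay above the common shift and 8544 below. At an unadjusted p under 0.05 (limma) there were 9 members, beside 3196 of the 16241 tested genes. The 3 were CLSPN at 0.42 log2 (SE 0.0849, adjusted p = 0.0087, limma), RRM2 at 0.41 (SE 0.0969, adjusted p = 0.0194, limma) and GMNN at 0.42 (SE 0.115, adjusted p = 0.0438, limma). With no CPM minimum, where 39.7% of values were listed at 0 instead of 5.82% and the common shift was 1.74 log2, the 3 turned to −0.27 each and 10 members were lower. The share of all genes called lower under that setting was not computed, so this count is not a result about the members. The calls of CLSPN and RRM2 held without each single library in turn, and that of GMNN ended without any 1 of 13. The median centred effect of the members was 0.10, beside −0.02 over all tested genes. By role the medians ran from −0.10 for MCM2-7 to 0.25 for the clamp and its loader.

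**Figure D4:**
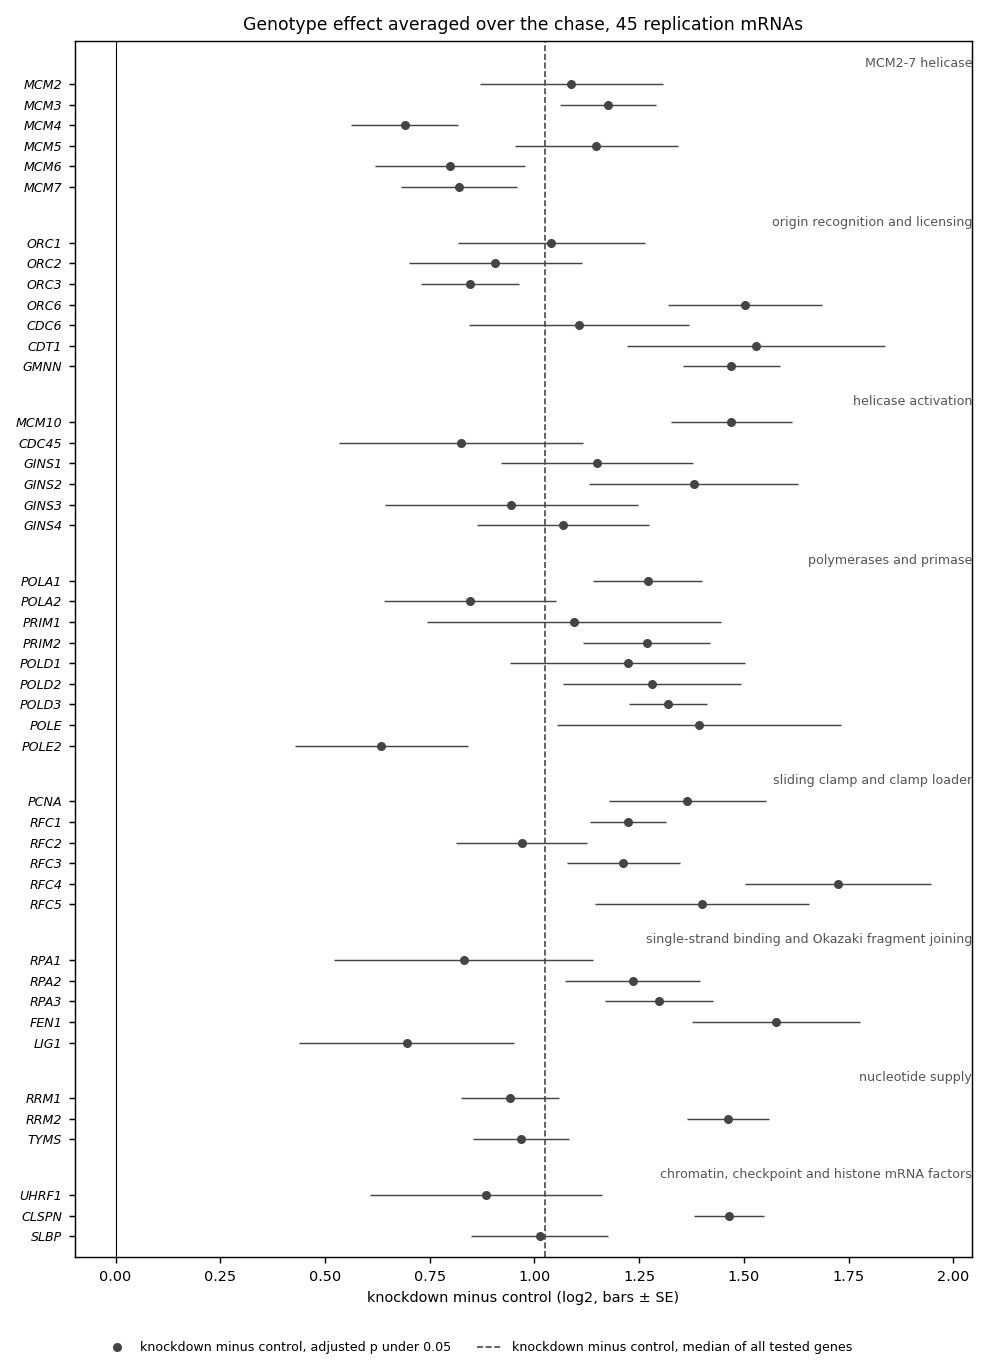
Genotype effect, knockdown minus control in log2(rate in percent + 0.05), averaged over the chase for each of the 45 members with bars of 1 SE on each side. The dashed line is the median of all tested genes, 1.02. All 45 lie above 0, from 0.63 (POLE2) to 1.73 (RFC4). Relative to the common shift of 1.05 there are 28 above and 17 below, beside 7697 and 8544 of the 16241 tested genes.

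Centred by time, the median member effect over the 4 times was 0.00, 0.13, 0.25 and 0.07 log2. No member was called at the first 3 of them (limma), where 0.548%, 0.511% and 0.727% of tested genes were called in either direction. At those times 1, 1 and 7 members had an unadjusted p under 0.05 (limma), beside 1535, 1299 and 1809 of the 16241 tested genes.

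The members' transcripts, taken as 1 per gene from GENCODE 29, had a median length of 3157 bases, beside 3142 for 12335 tested genes with a transcript, and a median 3′ UTR of 666 bases, beside 1033. The letters GGACT, a form of the m6A consensus, occurred 0.956 times per kilobase in the median member and 0.93 times in the median tested gene. At least 1 occurred in 40 of the 45 members and in 91.2% of the tested genes with a transcript. GMNN, RFC4, ORC6, POLE2 and RPA2 hold none, CLSPN 1 and RRM2 2. The transcripts of GMNN and RFC4 are short, at 1262 and 1448 bases. Across the 45 members, the density of GGACT had a Spearman rho of 0.279 with the control slope, 0.342 with the knockdown slope and −0.282 with the centred genotype effect, given as a description of genes that share their libraries. The median control slope was −0.13 in the 14 members with E2F letters (−0.33 to 0.11) and −0.17 in the 25 without (−0.36 to 0.06). In the same order, the median knockdown slopes were −0.10 and −0.19, and the median centred genotype effects 0.02 and 0.10. A difference between these sets was not tested.

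For 14 members, exons overlap those of another tested gene, on the same strand in 4 and on the opposite strand in 12. The longest overlaps with tested genes on the opposite strand are those of GINS4 with AC009630.2 (1159 bases), MCM2 with AC023593.1 (1113 bases) and TYMS with ENOSF1 (967 bases). Whether reads were counted by strand is not given, so the values of such members may include reads of the other gene. The longest overlaps on the same strand are those of POLA2 with AP000944.2 (2012 bases), RRM2 with AC007240.1 (1077 bases, a gene that was not among those tested), POLD1 with AC020909.1 (426 bases) and PRIM1 with AC117378.1 (362 bases), whose reads could be split between the 2 genes, and these values are uncertain for that reason.

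A further 41 replication genes that are not members were all tested, as a list for comparison. Of these, 38 were higher in knockdown, beside 69.6% of tested genes. In control 21 fell and 2 rose (TK1 and SSRP1), beside 34.4% and 3.45% of tested genes, and in knockdown 22 fell and 2 rose, beside 37.9% and 4.06%. Their median slopes were −0.13 in control and −0.12 in knockdown, and their median genotype effect was 1.10 log2. Against the common shift, SUPT16H, a histone chaperone subunit of FACT, was higher by 0.57 (adjusted p = 0.00459, limma) and DNMT1, the maintenance DNA methyltransferase, by 0.32 (adjusted p = 0.0413, limma). RNASEH2C, a subunit of the RNase H2 complex, was at −0.80 on that scale (adjusted p = 0.00107, limma), but uncentred it was 0.25 higher in knockdown, which did not pass. The most abundant genes of the list were RNASEH2B at 688.2 CPM, NASP at 327.3, DNMT1 at 324.4 and RNASEH2C at 287.5. RNASEH2B, another subunit of that complex, had slopes of 0.01 in both genotypes, while NASP, a histone chaperone, fell by 0.13 and 0.14 log2 per hour (adjusted p = 0.00159 and 6.49e-04, limma). The slopes of no gene of this list differed between genotypes past the threshold.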

How the data were processed

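The deposited table gives, per the file headers and values, a fraction for each gene and library, taken to be a T-to-C conversion rate. It also holds a single deposited column of CPM (counts scaled to library size) from an unstated library and a gene length (other), which was not used. CASAVA, HISAT2 2.1.0 and hg38 are named in the submitters' processing notes; no annotation, conversion caller or strand setting is given in the sources used here. Control and knockdown columns were told apart by their initials, the knockdown by elimination. Rates in percent plus 0.05 were log2-transformed and tested with limma 3.58.1 (R 4.3.3) using a variance trend in log2(CPM + 0.01), over 16241 genes with at least 1 CPM and a rate above 0 in any library, and Benjamini-Hochberg adjustment at 0.05. The genotype effect had time as a factor; slopes had an intercept and a slope for each genotype; effects at single times and over the first 1.5 h came from 8 group means. Centred values subtract each library's median over tested genes. The fits were tested on simulated data. Depth per gene is unknown, so no counting interval was given. Alternatives were other pseudocounts, CPM minimums, no variance trend, a replicate block and leaving out each library. Values by library are given for the most abundant member of each role, members past the threshold in the centred genotype effect or the slope difference, and the 3 lowest and 3 highest control slopes; RFC4 was added after its values were seen. The members and lists were chosen with earlier results of these data known. Gene positions and transcripts come from GENCODE 29 (GRCh38), and promoters from RefSeq.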

Additional observations from a re-analysis of the deposited data

How the results depend on the processing

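Leaving out 1 library at a time gave 43 to 45 members called for the genotype effect, 20 to 27 for the control slope, 20 to 23 for the knockdown slope, 9 to 16 for either centred slope, 2 to 3 for the centred genotype effect, 16 to 26, 18 to 34, 19 to 33 and 15 to 24 for the effect at 0, 1.5, 4.5 and 7.5 h, and 0 for the slope difference and the first 1.5 h. The count for the centred genotype effect, 3, became 5 with a pseudocount of 0.2, 1 without the variance trend and 10, all lower, with no CPM minimum. With no CPM minimum the centred knockdown slope had 5 members called (5 higher, 0 lower) instead of 15 and the centred control slope 18 (18 higher, 0 lower) instead of 16, and the centred genotype effects of GMNN, RRM2 and CLSPN were −0.27, −0.27 and −0.27 and the centred control slope of RFC1 0.13. Without a CPM minimum the centring reference included more genes listed at 0. Shares over all genes were not computed for the alternative settings or the left-out libraries, so these counts are not results about the members alone. With each library centred, the members called at 0, 1.5, 4.5 and 7.5 h were 0, 0, 0 and 1. Centred effects were below 0 in 23, 17, 17 and 22 of the 45 members at these times. The same held for 8529, 8650, 8613 and 8388 of the 16241 tested genes. Of the members described by library, those called higher before centring and below 0 after it had −0.025 (TYMS) and −0.20 (RFC4) at 0 h, −0.23 (MCM4) and −0.22 (ORC3) at 1.5 h, −0.27 (ORC3), −0.050 (RFC1) and −0.064 (TYMS) at 4.5 h, and −0.15 (POLA1) and −0.33 (TYMS) at 7.5 h, by construction of the centring. No pairing by replicate number was seen gene by gene in the centred values. Over 28 pairs of groups the deviations of same-numbered libraries correlated at −0.0239 to 0.0396. Centring removes a shift common to a library, so this cannot show whether same-numbered libraries were handled together. With the replicate block the genotype effect had 45 members called, the control slope 26, the knockdown slope 22, either centred slope 14 and the centred genotype effect 2. The depth behind each rate is unknown, so small differences at low rates could not be separated from counting error.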
